A study of Rattus norvegicus with 12 samples.

Results

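The RT1 complex is the major histocompatibility complex (MHC) of the rat. Its members were taken as every row of the gene count table whose symbol begins with RT1-, which gave 44 of 32545 genes. By their names, 34 are class I genes and 10 are class II genes. The count table came from cultured rat cardiac fibroblasts, the stromal cells of the heart, in 4 groups of 3 libraries, which the design text calls biological replicates. GS_diff2 were GS cells in CMM medium with EGM2 solution added, labelled as differentiating to cardiomyocytes and endothelial cells. GS_diff1 were GS cells in CMM medium alone, labelled as differentiating to cardiomyocytes. GS were immortalized cardiac fibroblasts with virally overexpressed Sall4 and Gata4, kept without treatment, and GS_diff2 and GS_diff1 carry the same factors. RCF were the untreated wild-type parental fibroblasts, although 1 treatment label names the viral factors for every library, RCF included. The rat strain, the number of clones, the viral promoter and the time in culture are not given in the labels. The class I gene content and sequence of RT1 are known to differ among inbred rat strains.

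MHC class I molecules carry peptides from inside the cell to its surface, where cytotoxic T cells and natural killer cells read them, and nearly every nucleated cell makes them. Each class I heavy chain pairs with beta-2 microglobulin, encoded by B2m outside the complex, after proteasome subunits have cut the peptides and the Tap transporter has moved them into the endoplasmic reticulum. In the rat, the RT1-A genes encode the classical class I molecules, and the RT1-CE, RT1-M, RT1-N, RT1-S and RT1-T24 genes are counted as non-classical. Class II molecules present peptides from outside the cell to helper T cells and are made mainly by antigen-presenting cells. Interferon gamma raises both classes in many cell types, including fibroblasts.

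The 44 genes lay on chromosome 20 between positions 154074 and 5421098 of Rnor_6.0, a span of 5.27 Mb. Several gene models lie on each other. Of the 20 members with enough counts to be tested, 12 overlap another member on the same strand, and 11 overlap a gene outside the family. RT1-A1 contains RT1-A2, RT1-CE16 overlaps RT1-A3, RT1-T24-1 overlaps RT1-T24-2, and RT1-M6-1 overlaps RT1-M6-2. The model of RT1-CE2 runs over 305 kb and takes in RT1-CE3 to RT1-CE7, along with Tnf and Ddx39b. The tested members that overlap no other gene model are RT1-CE10, RT1-M3-1 and RT1-T24-3. How the authors counted reads that match several genes, and whether strand was used, is not given in the sources used here. The value of a single row is therefore uncertain where it overlaps or nearly matches another, and sums over the members whose models overlap are given below.

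The 300 bases around the annotated start of 4 members are shown because these genes are described at length below. RT1-S3 and RT1-N3 are neighbouring non-classical genes, RT1-A2 is a classical gene, and RT1-CE16 was the class I row highest per length in every group but RCF. The sequences are from RefSeq on assembly GRCr8, written 5′ to 3′ with 250 bases before and 50 after the start. RT1-S3 stands at chr20:2675278-2675577 on the plus strand, RT1-N3 at chr20:2666239-2666538 on the plus strand, RT1-A2 at chr20:4872621-4872920 on the plus strand, and RT1-CE16 at chr20:3265394-3265693 on the minus strand. Capitals mark matches on either strand to the motifs described after the sequences.
RT1-S3: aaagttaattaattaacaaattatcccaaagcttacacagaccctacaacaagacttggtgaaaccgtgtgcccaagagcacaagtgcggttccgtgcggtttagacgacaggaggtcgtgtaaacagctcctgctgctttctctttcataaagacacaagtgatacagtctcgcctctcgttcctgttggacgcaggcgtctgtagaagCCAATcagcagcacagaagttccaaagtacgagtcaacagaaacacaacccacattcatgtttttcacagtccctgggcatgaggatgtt
RT1-N3: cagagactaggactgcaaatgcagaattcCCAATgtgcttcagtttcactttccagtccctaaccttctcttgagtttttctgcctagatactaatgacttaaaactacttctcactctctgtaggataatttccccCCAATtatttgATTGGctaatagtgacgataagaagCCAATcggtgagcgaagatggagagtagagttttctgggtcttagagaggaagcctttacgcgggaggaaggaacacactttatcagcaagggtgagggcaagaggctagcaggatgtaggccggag
RT1-A2: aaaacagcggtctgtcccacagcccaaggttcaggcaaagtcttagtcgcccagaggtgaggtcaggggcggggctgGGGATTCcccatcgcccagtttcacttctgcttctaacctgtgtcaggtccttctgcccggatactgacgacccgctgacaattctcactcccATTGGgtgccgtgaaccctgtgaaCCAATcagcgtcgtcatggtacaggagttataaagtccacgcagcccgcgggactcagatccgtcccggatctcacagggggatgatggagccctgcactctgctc
RT1-CE16: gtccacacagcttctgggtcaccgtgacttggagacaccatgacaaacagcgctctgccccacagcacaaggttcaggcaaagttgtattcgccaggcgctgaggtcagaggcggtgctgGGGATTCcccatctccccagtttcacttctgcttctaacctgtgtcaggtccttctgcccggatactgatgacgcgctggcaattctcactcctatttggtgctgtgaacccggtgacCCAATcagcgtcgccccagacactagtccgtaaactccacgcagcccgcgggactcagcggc

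Promoters were matched for 35 members, of which 26 are class I and 9 are class II. The searched letters were GGGATTC, a core of the kappaB site of the class I enhancer, TGACGT, the core of the X2 box, and ATTGG, the core of the Y box. Both strands were searched, and among the members matches shared bases only with the same motif on the other strand, for ATTGG in RT1-T24-2 and for TGACGT in RT1-Ba. GGGATTC stood in 8 of 26 class I promoters, those of RT1-A1, RT1-A2, RT1-A3, RT1-CE3, RT1-CE4, RT1-CE10, RT1-CE16 and RT1-M5, in 0 of 9 class II promoters, and in 3.42% of all 33469 promoters. ATTGG stood in 9 of 9 class II and 17 of 26 class I promoters, and in 37.5% of all promoters. TGACGT stood in 2 members, RT1-M6-1 and RT1-Ba, and in 7.94% of all promoters. In the sequences above, GGGATTC begins at position -173 from the start in RT1-A2 and at -130 in RT1-CE16, and has no match in the windows of RT1-S3 and RT1-N3. ATTGG has 4 matches in RT1-N3, 2 in RT1-A2 and 1 each in RT1-S3 and RT1-CE16. The promoters of RT1-S3 and RT1-N3 were identical at 43.9% of the columns of a global alignment, against the median of 46.3% over 171 pairs of tested members, while those of RT1-M6-1 and RT1-M6-2 were identical at 96%. A match of letters is a description and shows neither binding nor use of a site.

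Libraries held 16255682 to 23117864 counts. Levels are given as CPM, a count divided by the TMM-scaled total of its library, and differences as log2 fold changes ± SE from edgeR's quasi-likelihood test with Benjamini-Hochberg adjustment over 14399 tested genes, called at an adjusted p under 0.05. In bulk RNA, fewer cells that express a gene and less RNA per cell cannot be told apart. Of the cell markers, the 10 fibroblast genes summed to 29085 to 29456 CPM in GS_diff2, 50741 to 52204 CPM in GS_diff1, 42738 to 46043 CPM in GS and 41092 to 44246 CPM in RCF. Their summed level was thus high in all groups. A mean of at least 1 CPM was reached by 8 of the 10 in GS_diff2, 8 in GS_diff1, 9 in GS and 10 in RCF. Tcf21 had 0 counts in GS_diff2. The 7 cardiomyocyte markers found summed to 35.8 to 38.2 CPM in GS_diff2, 10.2 to 12.2 CPM in GS_diff1, 2.45 to 2.83 CPM in GS and 15.4 to 16.8 CPM in RCF, with Myl2 at 0 counts in all. The 7 endothelial markers found summed to 30.7 to 31.6 CPM in GS_diff2, 30.5 to 36.1 CPM in GS_diff1, 25.2 to 26.4 CPM in GS and 33.2 to 37.5 CPM in RCF. Of these 7, 2 reached a mean of 1 CPM in GS_diff2, 3 in GS_diff1, 2 in GS and 2 in RCF. Cldn5 and Emcn had 0 counts in all groups. Of the 7 cardiomyocyte markers, 2 reached that mean in GS_diff2, 2 in GS_diff1, 1 in GS and 1 in RCF.

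Class I transcripts were highest in GS_diff2 and class II transcripts were near 0 in every group. Summed over the 34 class I rows, the level was 364, 351 and 368 CPM in GS_diff2, 121, 150 and 145 CPM in GS_diff1, 228, 235 and 253 CPM in GS, and 142, 150 and 146 CPM in RCF. The GS_diff2 libraries were all above the GS libraries, those were all above the other libraries, and GS_diff1 and RCF overlapped. Without RT1-CE16 the sums averaged 281 ± 6.56 CPM in GS_diff2, 95.1 ± 13.4 CPM in GS_diff1, 161 ± 10.5 CPM in GS and 146 ± 4.03 CPM in RCF (SD, n = 3 each). The summed class I level was therefore 1.63 times as high in GS as in RCF with RT1-CE16, and 1.10 times without it. The 10 class II rows together had 19 counts in GS_diff2, 18 in GS_diff1, 3 in GS and 37 in RCF, against 52469 class I counts over all 12 libraries.

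**Figure D1:**
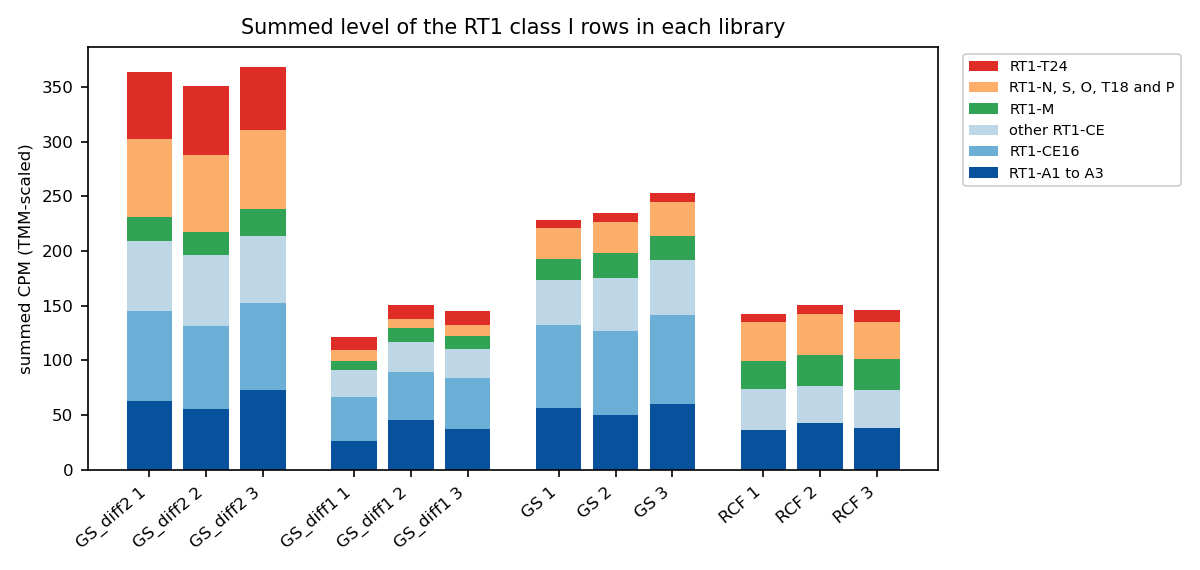
Summed CPM of the RT1 class I rows in each of the 12 libraries, stacked by gene group, on a linear axis from 0. The GS_diff2 bars reach 351 to 368 CPM, against 121 to 150 CPM in GS_diff1, and the RT1-CE16 layer is absent in RCF.

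Per length, the order of the class I genes differed among groups. In GS_diff2, RT1-CE16 stood at 73.2 CPM per kb of gene model, followed by RT1-T24-2 at 47.5 and RT1-S3 at 27.2. In GS_diff1, RT1-CE16 stood at 40.2 CPM per kb, RT1-A2 at 12.5 and RT1-T24-2 at 8.93. In GS, RT1-CE16 stood at 71.4 CPM per kb, RT1-A2 at 23.0 and RT1-S3 at 12.4. In RCF, RT1-S3 stood at 13.6 CPM per kb, RT1-M3-1 at 12.4 and RT1-A1 at 8.83, and RT1-CE16 was at 0. RT1-CE16 made up 22.1% of the summed class I CPM in GS_diff2, 31.5% in GS_diff1, 32.6% in GS and none of it in RCF.

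All 20 tested members are class I genes, and the other 24 members are counted in no test. In GS_diff2 against GS_diff1, 16 of 20 tested members were called higher and 1 lower, which is 85% called, against 63.7% of all tested genes (32.1% higher and 31.5% lower). The median log2 fold change of the tested members was 1.27, against 0.00 over all genes. In GS_diff2 against GS, 10 were higher and 1 lower, which is 55% called, against 67.0% of all genes called (33.3% higher and 33.7% lower), and the median was 0.50. In GS_diff1 against GS, 2 were higher and 11 lower, which is 65% called, against 64.3% of all genes called (32.0% higher and 32.3% lower), and the median was -0.68. In GS against RCF, 4 were higher and 8 lower, which is 60% called, against 71.3% of all genes called (35.0% higher and 36.3% lower), and the median was -0.26. The share called was thus near or below the background in the last 3 comparisons. These comparisons share libraries and are no independent views of one difference. Of the 20 tested members, 12 overlap another on the same strand and may share reads, so the rows are not separate observations.

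**Figure D2:**
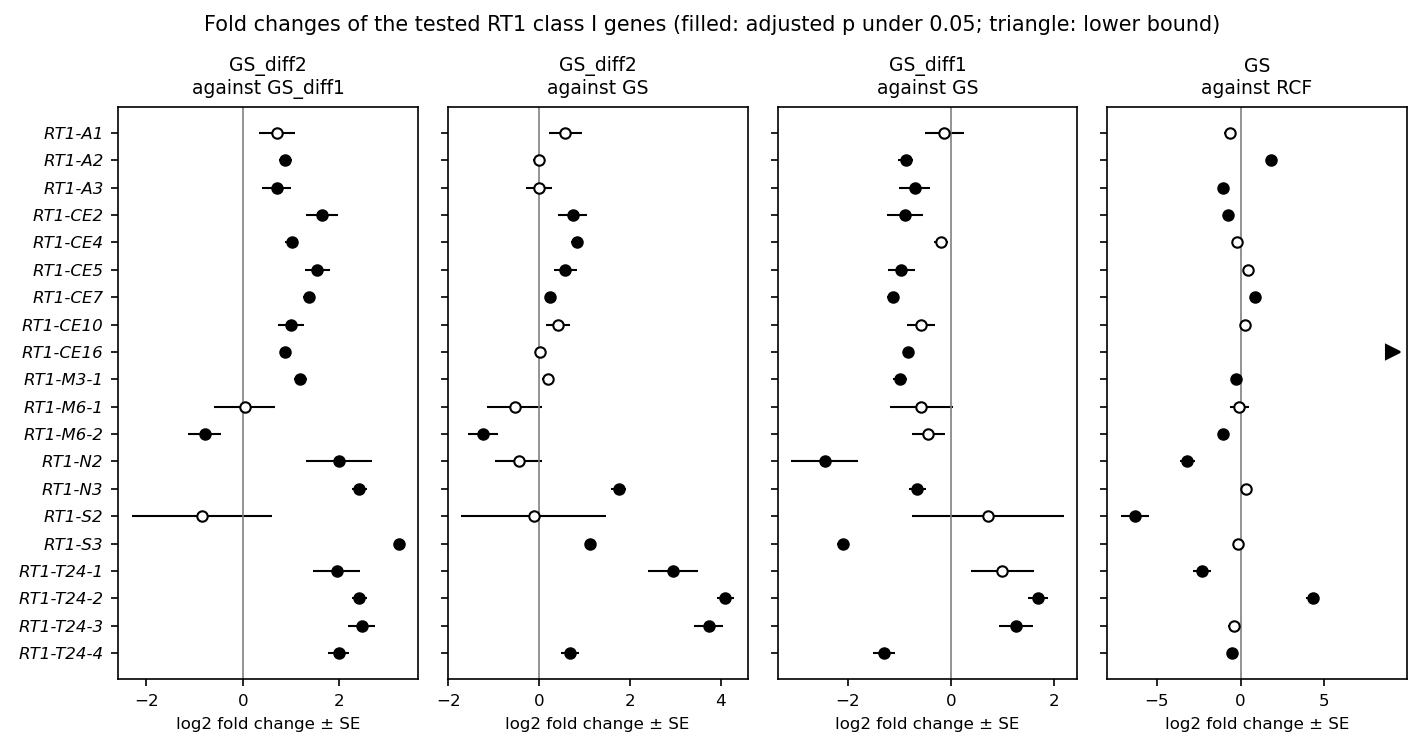
Log2 fold changes ± SE of the 20 tested class I genes in 4 comparisons, each panel with its own axis, where filled points passed an adjusted p of 0.05 and the triangle is a lower bound for a gene with 0 counts in RCF. In GS_diff2 against GS_diff1, 16 of 20 points are filled and to the right of 0.

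The differentiated groups were also set against RCF. In GS_diff2 against RCF, 10 of 20 were higher and 4 lower, which is 70% called, against 72.5% of all genes called (37.1% higher and 35.4% lower). In GS_diff1 against RCF, 4 were higher and 11 lower, which is 75% called, against 75.4% of all genes called (38.0% higher and 37.4% lower). In no alternative did a count of class I calls move by more than 1.5 times.

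RT1-S3 had the largest difference between the differentiated groups. It encodes a non-classical class I chain whose mouse counterpart is H2-T23 (Qa-1), per the synonyms in RefSeq, a ligand for receptors of natural killer cells. The gene ENSRNOG00000000777 lies at 3176107 to 3179818 on chromosome 20. It had 48.2, 47.8 and 48.4 CPM in GS_diff2, 5.61, 4.29 and 5.39 CPM in GS_diff1, 23.1, 21.1 and 21.5 CPM in GS, and 23.5, 26.3 and 22.1 CPM in RCF. The differentiated groups lay on either side of GS with no overlap, while GS and RCF overlapped. RT1-S3 was 9.44-fold higher in GS_diff2 than in GS_diff1 (log2 3.24 ± 0.10, adjusted p = 2.08e-22). It rose 2.19-fold in GS_diff2 against GS (log2 1.13 ± 0.09, adjusted p = 7.17e-13) and fell 4.30-fold in GS_diff1 against GS (log2 -2.10 ± 0.10, adjusted p = 2.15e-17). Against RCF, GS differed by log2 -0.13 ± 0.09 (adjusted p = 0.188), and this passed with library totals only (log2 -0.23, adjusted p = 0.0204). The antisense model Rn60_20_0032.5, which covers RT1-S3, averaged 0.876 CPM in GS_diff2, 0.888 CPM in GS_diff1, 0.587 CPM in GS and 1.3 CPM in RCF.

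RT1-N3, a non-classical gene beside RT1-S3 at 3167079 to 3170945 (ENSRNOG00000000795), was also highest in GS_diff2. Its level was 23.3, 21.6 and 23.3 CPM in GS_diff2, 4.42, 4.13 and 4.29 CPM in GS_diff1, 4.91, 7.06 and 8.37 CPM in GS, and 5.87, 4.57 and 5.77 CPM in RCF. All GS_diff2 libraries were above all others, and GS overlapped RCF. RT1-N3 was higher in GS_diff2 than in GS_diff1 (log2 2.41 ± 0.16, adjusted p = 7.22e-14) and than in GS (log2 1.75 ± 0.16, adjusted p = 4.1e-11), and it fell in GS_diff1 against GS (log2 -0.65 ± 0.17, adjusted p = 0.00106). In GS against RCF the difference was log2 0.32 ± 0.16 (adjusted p = 0.083), and leaving out GS replicate 1, the lowest of its group, gave log2 0.51 with an adjusted p of 0.005.

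The 4 RT1-T24 rows, non-classical genes related to mouse H2-T24, had their highest summed level in GS_diff2. Together they had 60.9, 63.7 and 57.7 CPM in GS_diff2, 11.5, 12 and 12.6 CPM in GS_diff1, 7.20, 8.22 and 8.37 CPM in GS, and 7.05, 8.36 and 10.8 CPM in RCF. The groups did not overlap, except that GS lay within the range of RCF. The summed level was 5.07 times as high in GS_diff2 as in GS_diff1 and 7.66 times as high as in GS.

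In GS_diff2 and GS_diff1, most of that sum was RT1-T24-2 at 3242470 to 3249189 (ENSRNOG00000000787). In GS and RCF, RT1-T24-4 was the largest part. RefSeq on GRCr8 types RT1-T24-2 as a non-coding RNA, and the deposited table types it as protein coding. RefSeq places the gene of this name on the minus strand, and the deposited row is on the plus strand. Whether both are the same gene was not tested. The deposited row had 43.4, 45.9 and 41.8 CPM in GS_diff2, 7.94, 8.47 and 8.23 CPM in GS_diff1, 2.11, 3.18 and 2.38 CPM in GS, and 0.0845, 0 and 0.284 CPM in RCF. The groups formed 4 steps with no overlap. It rose in each comparison: log2 2.41 ± 0.16 in GS_diff2 against GS_diff1 (adjusted p = 3.91e-11), 4.10 ± 0.19 in GS_diff2 against GS (adjusted p = 4.05e-14), 1.69 ± 0.19 in GS_diff1 against GS (adjusted p = 1.26e-07) and 4.29 ± 0.36 in GS against RCF (adjusted p = 9.08e-10). RT1-T24-3, which overlaps no other gene model, averaged 7.80 ± 0.793 CPM in GS_diff2, 1.41 ± 0.0449 CPM in GS_diff1, 0.577 ± 0.25 CPM in GS and 0.768 ± 0.177 CPM in RCF. It rose by log2 2.46 ± 0.28 in GS_diff2 against GS_diff1 (adjusted p = 7.1e-09), and in GS against RCF it differed by log2 -0.41 ± 0.34 (adjusted p = 0.292).

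Both other RT1-T24 rows were called lower in GS than in RCF, and neither was called in GS_diff2 against RCF, where their libraries overlapped (RT1-T24-4, log2 0.15 ± 0.19, adjusted p = 0.495, and RT1-T24-1, log2 0.65 ± 0.45, adjusted p = 0.196). RT1-T24-4 averaged 7.26 ± 0.805 CPM in GS_diff2, 1.85 ± 0.341 CPM in GS_diff1, 4.54 ± 0.413 CPM in GS and 6.56 ± 1.04 CPM in RCF. It was higher in GS_diff2 than in GS_diff1 (log2 1.98 ± 0.21, adjusted p = 1.44e-09) and lower in GS_diff1 than in GS (log2 -1.30 ± 0.21, adjusted p = 3.88e-06). In GS against RCF it was lower (log2 -0.53 ± 0.20, adjusted p = 0.0168), a call lost without GS replicate 1 (log2 -0.46) or without RCF replicate 3 (log2 -0.41). RT1-T24-1, which shares 6698 bases with RT1-T24-2, averaged 2.01 ± 0.559 CPM in GS_diff2, 0.524 ± 0.288 CPM in GS_diff1, 0.259 ± 0.136 CPM in GS and 1.29 ± 0.743 CPM in RCF. It was higher in GS_diff2 than in GS_diff1 (log2 1.94 ± 0.49, adjusted p = 0.00107) and lower in GS than in RCF (log2 -2.29 ± 0.56, adjusted p = 0.000583).

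**Figure D3:**
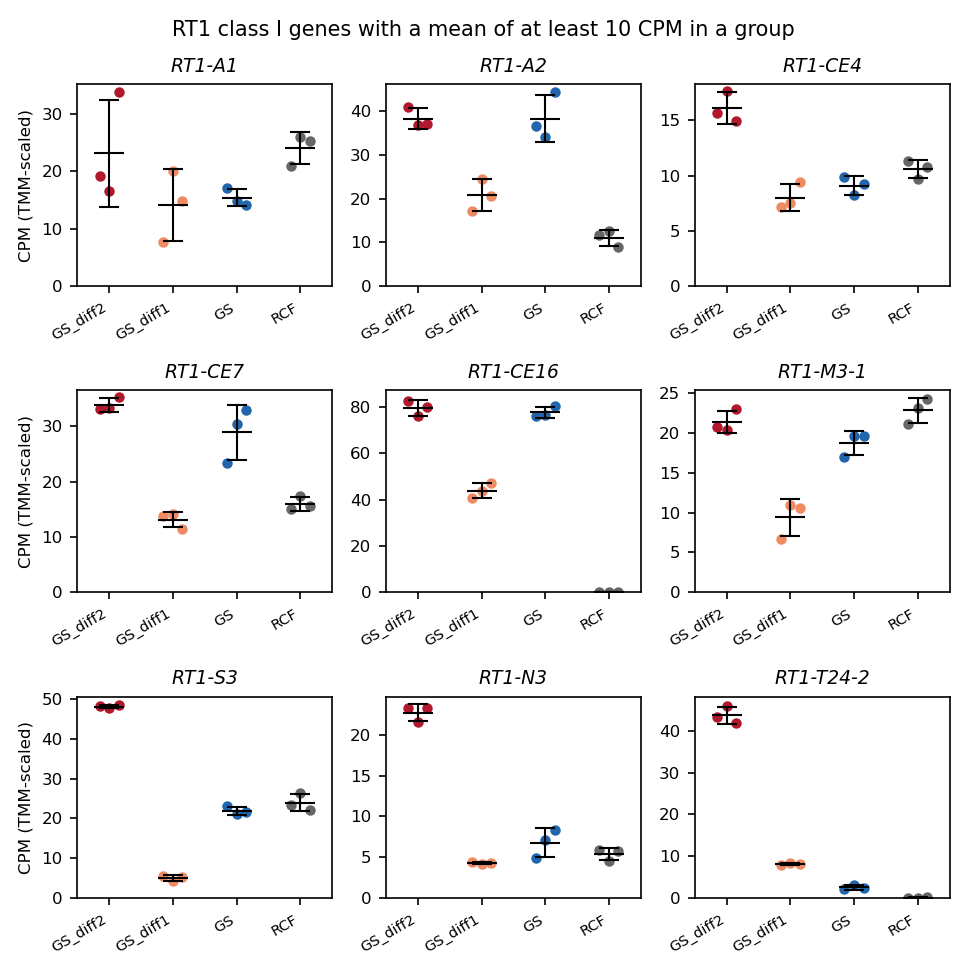
CPM of the 9 class I genes with a mean of at least 10 CPM in some group, with 1 point per library and bars for the mean ± SD of 3 libraries, each panel on its own linear axis from 0. RT1-S3, RT1-N3 and RT1-T24-2 are highest in GS_diff2, at 48.1, 22.7 and 43.7 CPM on average, and RT1-CE16 is at 0 in all RCF libraries.

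RT1-CE16, a class I gene at 3791407 to 3794027 (ENSRNOG00000047706), was present in all GS-derived libraries and had no counts in RCF. It had 82.9, 76.1 and 80.0 CPM in GS_diff2, 40.6, 43.7 and 47.1 CPM in GS_diff1, and 76.1, 76.7 and 80.5 CPM in GS. In the 3 RCF libraries it had 0 counts, which allows up to 3 counts per library, or 0.141 CPM on average. The counts of RT1-CE16 were thus at least 552-fold higher in GS than in RCF, at least 565-fold higher in GS_diff2 and at least 311-fold higher in GS_diff1, where the bounds cover counting error only. A lack of expression and a difference in RT1 gene content or sequence between the cultures were not tested and cannot be told apart. Among the GS-derived groups, RT1-CE16 was higher in GS_diff2 than in GS_diff1 (log2 0.87 ± 0.06, adjusted p = 7.42e-13) and fell in GS_diff1 against GS (log2 -0.83 ± 0.06, adjusted p = 2.11e-12), while GS_diff2 differed from GS by log2 0.03 ± 0.06 (adjusted p = 0.624).

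In Rnor_6.0 the model of RT1-A3 overlaps that of RT1-CE16 over 2399 bases, and RT1-A3 showed the opposite order between GS and RCF. On GRCr8 the 2 promoters lie apart and on opposite strands. That of RT1-A3 is at 4849201 to 4849500 on the plus strand. That of RT1-CE16 is at 3265394 to 3265693 on the minus strand. RT1-A3 averaged 2.01 ± 0.331 CPM in GS_diff2, 1.24 ± 0.36 CPM in GS_diff1, 1.99 ± 0.487 CPM in GS and 4.14 ± 0.145 CPM in RCF. RT1-A3 was lower in GS than in RCF (log2 -1.05 ± 0.28, adjusted p = 0.00153). Its call in GS_diff2 against GS_diff1 (log2 0.70 ± 0.30, adjusted p = 0.0415) was lost in 10 of 18 alternatives (log2 0.51 to 0.73). Its call in GS_diff1 against GS (log2 -0.70 ± 0.30, adjusted p = 0.0436) was lost in 12 (log2 -0.73 to -0.49), and 7 of each left out 1 library. The 2 rows together had 81.7 ± 3.53 CPM in GS_diff2, 45.0 ± 3.49 CPM in GS_diff1, 79.8 ± 2.35 CPM in GS and 4.14 ± 0.145 CPM in RCF. This sum was 19.3 times as high in GS as in RCF. A plain split of reads between the 2 rows would not change it. Reads dropped, counted in both rows or shared with other members could change it.

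The classical class I gene RT1-A2 (ENSRNOG00000030712, 5374985 to 5378539) lies within the model of RT1-A1 (ENSRNOG00000038999, 5351605 to 5421098). RT1-A2 had 41.1, 36.9 and 37.1 CPM in GS_diff2, 17.2, 24.6 and 20.7 CPM in GS_diff1, 36.6, 34.1 and 44.4 CPM in GS, and 11.6, 12.6 and 8.94 CPM in RCF. GS_diff2 overlapped GS, and both were above GS_diff1, which was above RCF. RT1-A2 was higher in GS_diff2 than in GS_diff1 (log2 0.88 ± 0.14, adjusted p = 0.000119), fell in GS_diff1 against GS (log2 -0.88 ± 0.14, adjusted p = 0.000131) and rose 3.47-fold in GS against RCF (log2 1.79 ± 0.15, adjusted p = 1.66e-07). GS_diff2 and GS differed by log2 0.00 ± 0.14 (adjusted p = 0.99).

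RT1-A1 had 19.1, 16.5 and 33.8 CPM in GS_diff2, 7.61, 20 and 14.8 CPM in GS_diff1, 17.0, 14.9 and 14.2 CPM in GS, and 20.9, 25.9 and 25.3 CPM in RCF. GS lay below RCF without overlap, while the differentiated groups were uneven, with GS_diff2 replicate 3 far above and GS_diff1 replicate 1 far below the rest of its group. None of its comparisons was called, with log2 -0.64 ± 0.37 in GS against RCF (adjusted p = 0.149) and log2 0.71 ± 0.37 in GS_diff2 against GS_diff1 (adjusted p = 0.126). Fitted on the GS and RCF libraries alone, the difference between those groups was log2 -0.61 with an adjusted p of 2.25e-05, and without GS_diff1 replicate 2 the difference between the differentiated groups was log2 1.04 with an adjusted p of 0.0493. Summed, RT1-A1 and RT1-A2 had 61.5 ± 8.86 CPM in GS_diff2, 35.0 ± 9.93 CPM in GS_diff1, 53.7 ± 4.77 CPM in GS and 35.1 ± 3.11 CPM in RCF.

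The models of RT1-CE3 to RT1-CE7 all lie within that of RT1-CE2, while RT1-CE3 and RT1-CE6 overlap only RT1-CE2 and RT1-CE4 among the members. The 6 rows together had 59.7 ± 1.16 CPM in GS_diff2, 24.4 ± 1.35 CPM in GS_diff1, 44.2 ± 4.85 CPM in GS and 33.3 ± 1.39 CPM in RCF. The largest was RT1-CE7 (ENSRNOG00000031090, 4694472 to 4896970), with 33.1, 33.3 and 35.3 CPM in GS_diff2, 13.8, 14.1 and 11.5 CPM in GS_diff1, 23.4, 30.4 and 32.9 CPM in GS, and 15, 17.4 and 15.5 CPM in RCF. The 4 groups did not overlap, although GS_diff2 and GS nearly met. RT1-CE7 was 2.57-fold higher in GS_diff2 than in GS_diff1 (log2 1.36 ± 0.11, adjusted p = 8.96e-12), fell in GS_diff1 against GS (log2 -1.13 ± 0.11, adjusted p = 5.41e-10) and rose in GS against RCF (log2 0.85 ± 0.11, adjusted p = 5.34e-08). Its call in GS_diff2 against GS (log2 0.24 ± 0.10, adjusted p = 0.0436) was lost in 6 of 18 alternatives, and without GS replicate 1 the difference was log2 0.10.

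RT1-CE4 (ENSRNOG00000039744, 4673658 to 4935887) had 15.7, 17.7 and 14.9 CPM in GS_diff2, 7.13, 7.51 and 9.39 CPM in GS_diff1, 9.87, 8.22 and 9.21 CPM in GS, and 11.3, 9.65 and 10.8 CPM in RCF. All GS_diff2 libraries were above the others, and the other groups overlapped in neighbouring pairs. It rose in GS_diff2 against GS_diff1 (log2 1.01 ± 0.13, adjusted p = 1.15e-07) and against GS (log2 0.83 ± 0.13, adjusted p = 3.13e-06). In GS against RCF it differed by log2 -0.22 ± 0.13 (adjusted p = 0.153), which passed with library totals only (log2 -0.32, adjusted p = 0.0372). RT1-CE5 averaged 5.69 ± 1.20 CPM in GS_diff2, 1.95 ± 0.627 CPM in GS_diff1, 3.81 ± 0.947 CPM in GS and 2.83 ± 0.183 CPM in RCF, and it was higher in GS_diff2 than in GS_diff1 (log2 1.54 ± 0.26, adjusted p = 5.51e-06). RT1-CE2 averaged 3.65 ± 1.22 CPM in GS_diff2, 1.17 ± 0.359 CPM in GS_diff1, 2.19 ± 0.412 CPM in GS and 3.64 ± 1.58 CPM in RCF, and it was likewise higher in GS_diff2 than in GS_diff1 (log2 1.63 ± 0.33, adjusted p = 8.52e-05). The calls of RT1-CE2 in GS against RCF (adjusted p = 0.0351) and of RT1-CE2 and RT1-CE5 in GS_diff2 against GS (adjusted p = 0.0394 and 0.0395) were each lost in 4 to 6 of 18 alternatives. Without RCF replicate 1, RT1-CE2 differed between GS and RCF by log2 -0.36. Ddx39b, a gene inside the RT1-CE2, RT1-CE4 and RT1-CE7 models on the same strand, averaged 316 CPM in GS_diff2, 324 CPM in GS_diff1, 155 CPM in GS and 212 CPM in RCF. LOC102549726, a non-coding RNA gene on the same strand inside the same models, averaged 24.9 CPM in GS_diff2, 43.6 CPM in GS_diff1, 165 CPM in GS and 38.8 CPM in RCF. The part of either gene in those rows was not tested.

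RT1-CE10 lies 1.18 Mb before the next member in Rnor_6.0. On GRCr8 its promoter is at 3384930 to 3385229, between those of RT1-CE16 and RT1-CE5. The gene averaged 3.55 ± 0.629 CPM in GS_diff2, 1.78 ± 0.248 CPM in GS_diff1, 2.66 ± 0.263 CPM in GS and 2.19 ± 0.434 CPM in RCF. It was higher in GS_diff2 than in GS_diff1 (log2 1.00 ± 0.27, adjusted p = 0.00172) and differed between GS and RCF by log2 0.28 ± 0.27 (adjusted p = 0.359).

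RT1-M3-1, whose mouse counterpart H2-M3 presents N-formylated peptides of bacteria and mitochondria, overlaps no other gene model (ENSRNOG00000000763, 1814661 to 1818800). It had 20.8, 20.4 and 23.0 CPM in GS_diff2, 6.71, 10.9 and 10.6 CPM in GS_diff1, 17.0, 19.6 and 19.6 CPM in GS, and 21.2, 23.2 and 24.3 CPM in RCF. GS_diff1 was below every other library, and GS_diff2 overlapped RCF. RT1-M3-1 was 2.28-fold higher in GS_diff2 than in GS_diff1 (log2 1.19 ± 0.13, adjusted p = 3.18e-08) and fell in GS_diff1 against GS (log2 -0.99 ± 0.13, adjusted p = 6.39e-07). Its call in GS against RCF (log2 -0.29 ± 0.13, adjusted p = 0.0401) was lost in 7 of 18 alternatives, each of which left out 1 library (log2 -0.33 to -0.23).

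RT1-M6-2 was the 1 tested member called lower in GS_diff2 than in GS_diff1. It averaged 0.742 ± 0.115 CPM in GS_diff2, 1.29 ± 0.194 CPM in GS_diff1, 1.76 ± 0.499 CPM in GS and 3.67 ± 0.315 CPM in RCF. RT1-M6-2 was lower in GS_diff2 than in GS (log2 -1.23 ± 0.33, adjusted p = 0.00175) and lower in GS than in RCF (log2 -1.07 ± 0.30, adjusted p = 0.00239). The call between the differentiated groups (log2 -0.79 ± 0.34, adjusted p = 0.0422) was lost in 13 of 18 alternatives (log2 -0.88 to -0.66). RT1-M6-1, which overlaps it over 3201 bases on the same strand, averaged 0.380 to 0.581 CPM over the groups and was called in no comparison. Summed, the 2 rows had 1.12 ± 0.223 CPM in GS_diff2, 1.67 ± 0.478 CPM in GS_diff1, 2.32 ± 0.555 CPM in GS and 4.25 ± 0.347 CPM in RCF. In these sums the differentiated groups overlapped, while GS lay below RCF and above GS_diff2 without overlap. Znrd1as1, on the opposite strand of both, averaged 5.64 CPM in GS_diff2, 3.37 CPM in GS_diff1, 3.42 CPM in GS and 5.79 CPM in RCF.

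A block of neighbouring genes, RT1-N2, RT1-S2 and RT1-O1 between 3146856 and 3162939, was detected mainly in RCF. RT1-N2 had 0.259, 0.263 and 0.366 CPM in GS_diff2, 0, 0.101 and 0.116 CPM in GS_diff1, 0.321, 0.521 and 0.386 CPM in GS, and 4.14, 3.54 and 3.36 CPM in RCF. It was lower in GS than in RCF (log2 -3.16 ± 0.42, adjusted p = 1.1e-07) and fell in GS_diff1 against GS (log2 -2.45 ± 0.65, adjusted p = 0.00173). In GS_diff2 against GS_diff1 it was higher (log2 1.99 ± 0.68, adjusted p = 0.0113), a call lost without GS_diff1 replicate 1 (log2 1.40, adjusted p = 0.0739).

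RT1-S2 had 1 count in GS_diff2, 2 in GS_diff1 and 1 in GS, against 123 counts in RCF, where it averaged 1.94 ± 0.42 CPM. Its level in GS was lower than in RCF by a factor of 104 (95% exact interval 18.4 to 4160), 117-fold lower in GS_diff2 (20.6 to 4666) and 55.6-fold lower in GS_diff1 (15.1 to 464), by counting error alone. RT1-O1, typed as a pseudogene and too low for the test, had 0 counts in GS_diff2, 0 in GS_diff1 and 3 in GS, against 37 in RCF. In GS it was lower than in RCF by a factor of 10.5 (3.32 to 53.1), at least 3.93-fold lower in GS_diff2 and at least 3.73-fold lower in GS_diff1. For RT1-S2 and RT1-O1, as for RT1-CE16, lack of expression and a difference in gene content or sequence cannot be told apart. For RT1-N3 and RT1-S3, the next genes along the chromosome, the GS and RCF libraries overlapped, as given above.

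**Figure D4:**
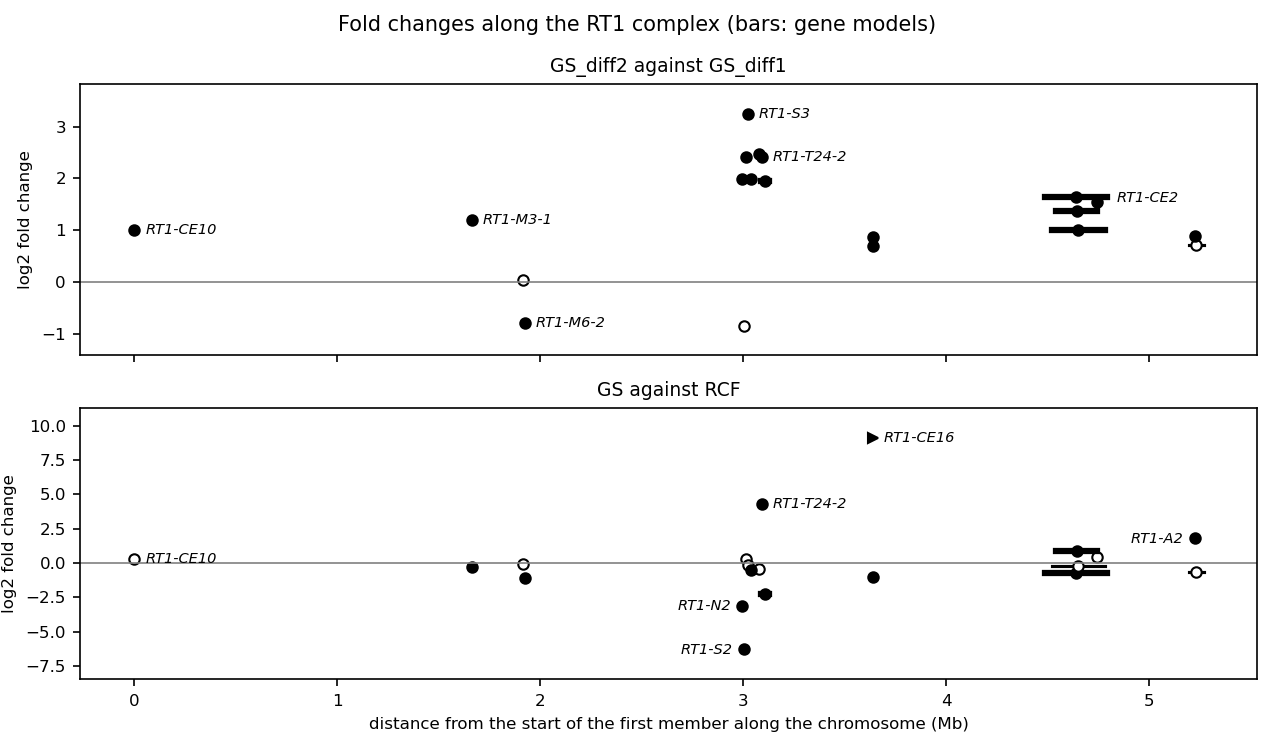
Log2 fold changes of the tested class I genes against their distance in Mb from the start of the first member along the chromosome, in GS_diff2 against GS_diff1 above and GS against RCF below, where horizontal bars show gene models, filled points passed an adjusted p of 0.05 and the triangle is a lower bound. Near 3 Mb, RT1-S3 stands at 3.24 in the upper panel, and RT1-N2 and RT1-S2 stand at -3.16 and -6.30 in the lower panel.

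Of the 14 class I rows that were not tested, RT1-M3-2-ps, RT1-M10-3-ps, RT1-M1-5, RT1-M1-4, RT1-M1-1-ps and RT1-P2-ps1 had 0 counts in all 12 libraries. Beside RT1-O1, the rows RT1-M2, RT1-M5, RT1-M1-2, RT1-M10-2-ps, RT1-T18, RT1-CE6 and RT1-CE3 had at most 7 counts in a library. By the table's own types, 9 of the 34 class I rows are pseudogenes.

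No class II gene passed the low-count filter. RT1-Ha, RT1-DOb, RT1-Ba and RT1-Db2 had 0 counts in all 12 libraries, and RT1-DOa, RT1-Bb, RT1-Db1 and RT1-Da had at most 4 counts in a library. RT1-Bb, a chain of the peptide-presenting B molecule, had 1, 4 and 1 counts in RCF and 0 in every other library. RT1-DMa, a chain of the DM molecule that helps load peptides, had 4, 6 and 2 counts in GS_diff2, 5, 5 and 8 in GS_diff1, 0, 1 and 0 in GS, and 6, 3 and 4 in RCF. RT1-DMb, its partner chain, had 0, 0 and 7 counts in GS_diff2, 0 in each library of GS_diff1 and GS, and 6, 0 and 5 in RCF. The summed class II level was 0.207, 0.263 and 0.470 CPM in GS_diff2, 0.238, 0.252 and 0.464 CPM in GS_diff1, 0, 0.0579 and 0.129 CPM in GS, and 0.633, 0.513 and 0.568 CPM in RCF.

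Markers of leukocytes and antigen-presenting cells, which make class II, moved with the difference between GS and RCF. The 22 markers summed to 47.9 to 50.1 CPM in GS_diff2, 27.6 to 30.1 CPM in GS_diff1, 39.3 to 42.6 CPM in GS and 125 to 129 CPM in RCF. Of the 13 tested, 2 were higher and 11 lower in GS than in RCF, where 71.3% of all genes were called. At 0 counts in a whole group were 11 of the 22 in GS_diff2, 12 in GS_diff1, 7 in GS and 5 in RCF, with Cd79b and Klrd1 among those at 0 in all. The macrophage markers Lyz2 and Adgre1 averaged 0.348 ± 0.194 CPM and 0 CPM in GS, against 55.8 ± 2.84 and 14.3 ± 0.981 CPM in RCF. The part of such cells in the RT1 levels of RCF was not tested.

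B2m, the light chain of all these class I molecules, was highest in RCF. It had 537, 530 and 544 CPM in GS_diff2, 201, 201 and 198 CPM in GS_diff1, 622, 584 and 611 CPM in GS, and 1174, 1157 and 1176 CPM in RCF, with no overlap between groups. B2m was 2.69-fold higher in GS_diff2 than in GS_diff1 (log2 1.43 ± 0.03, adjusted p = 3.75e-27), fell 3.03-fold in GS_diff1 against GS (log2 -1.60 ± 0.03, adjusted p = 2.93e-28) and fell 1.93-fold in GS against RCF (log2 -0.95 ± 0.03, adjusted p = 2.67e-23). In GS_diff2 against GS it was lower by a small margin (log2 -0.17 ± 0.03, adjusted p = 2.05e-06). Between GS and RCF, B2m and the summed class I level thus stood in opposite orders. The size of the class I difference rested mostly on RT1-CE16. The sum in GS was 1.63 times that in RCF with this row and 1.10 times without it. The opposite orders remained without it, at 152, 158 and 172 CPM in GS, against 142, 150 and 146 CPM in RCF. Of the 20 tested members, 8 were called lower in GS than in RCF, as B2m was, and 4 higher. That is 60% called, against 71.3% of all genes.

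The peptide supply genes were also higher in GS_diff2 than in GS_diff1. Tap1 and Tap2 encode the peptide transporter and lie within the RT1 span. Tap1 averaged 71.3 ± 4.45 CPM in GS_diff2, 38.7 ± 3.16 CPM in GS_diff1, 56.6 ± 5.90 CPM in GS and 56.3 ± 1.43 CPM in RCF, and it rose in GS_diff2 against GS_diff1 (log2 0.88 ± 0.07, adjusted p = 8.55e-12). Tap2 averaged 14 ± 1.27 CPM in GS_diff2, 8.12 ± 1.69 CPM in GS_diff1, 15.4 ± 4.86 CPM in GS and 13.7 ± 0.986 CPM in RCF, and it was higher in GS_diff2 than in GS_diff1 (log2 0.79 ± 0.19, adjusted p = 0.00178). Tapbp, which bridges class I chains to the transporter, averaged 115 ± 2.41 CPM in GS_diff2, 81.6 ± 4.84 CPM in GS_diff1, 71.0 ± 3.39 CPM in GS and 90.4 ± 2.16 CPM in RCF. Psmb8 and Psmb9 are subunits of the immunoproteasome. Psmb9 averaged 22.7 ± 1.06 CPM in GS_diff2, 7.87 ± 2.12 CPM in GS_diff1, 7.84 ± 1.08 CPM in GS and 16.1 ± 1.67 CPM in RCF, and it rose in GS_diff2 against GS_diff1 (log2 1.53 ± 0.14, adjusted p = 3.64e-10) and fell in GS against RCF (log2 -1.03 ± 0.14, adjusted p = 4.57e-07). Psmb8 averaged 14.6 ± 3.96 CPM in GS_diff2, 4.33 ± 1.98 CPM in GS_diff1, 7.18 ± 1.12 CPM in GS and 8.24 ± 0.894 CPM in RCF. Over the whole list of class I processing genes, 13 of 14 tested were higher and 1 lower in GS_diff2 against GS_diff1, 11 higher and 2 lower in GS_diff2 against GS, 7 higher and 5 lower in GS_diff1 against GS, and 1 higher and 10 lower in GS against RCF. That is 100%, 92.9%, 85.7% and 78.6% called in the 4 comparisons, against 63.7%, 67.0%, 64.3% and 71.3% of all tested genes, and the medians were log2 0.41, 0.52, 0.05 and -0.35, against 0.00, 0.00, 0.00 and -0.03 over all genes. The list also holds Calr, Canx, Pdia3 and Hspa5, folding factors of the endoplasmic reticulum. These were among the 7 higher in GS_diff1 than in GS (log2 0.98, 0.23, 0.71 and 0.97). B2m, Tap1 and Tap2 were among the 5 lower there (log2 -1.60, -0.55 and -0.92).

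**Figure D5:**
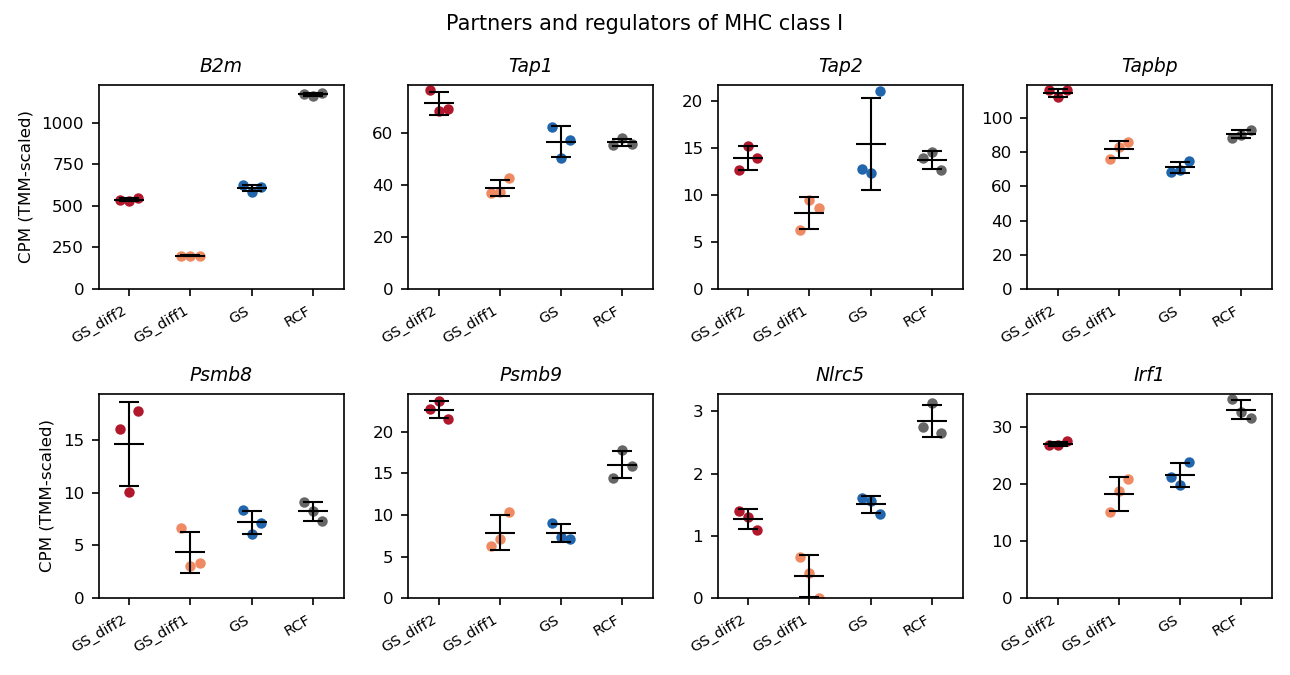
CPM of B2m, the peptide supply genes and 2 regulators in each library, with bars for the mean ± SD of 3 libraries and each panel on its own linear axis from 0. B2m stands at 537 CPM in GS_diff2, 200 CPM in GS_diff1, 606 CPM in GS and 1169 CPM in RCF on average.

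Among the regulators, Nlrc5, the transactivator of class I genes, averaged 1.27 ± 0.156 CPM in GS_diff2, 0.356 ± 0.335 CPM in GS_diff1, 1.51 ± 0.136 CPM in GS and 2.84 ± 0.254 CPM in RCF. It was higher in GS_diff2 than in GS_diff1 (log2 1.76 ± 0.49, adjusted p = 0.00265), lower in GS_diff1 than in GS (log2 -2.01 ± 0.49, adjusted p = 0.000763) and differed between GS and RCF by log2 -0.91 ± 0.41 (adjusted p = 0.0505). Irf1, an interferon-induced activator of class I genes, averaged 27.0 ± 0.356 CPM in GS_diff2, 18.3 ± 2.99 CPM in GS_diff1, 21.6 ± 2.10 CPM in GS and 32.9 ± 1.69 CPM in RCF. Ciita, the transactivator of class II genes, had at most 5 counts in a library and was not tested. Cd74, the invariant chain of class II, averaged 0.339 ± 0.197 CPM in GS_diff2, 0.548 ± 0.137 CPM in GS_diff1, 0.521 ± 0.112 CPM in GS and 0.412 ± 0.109 CPM in RCF, and no comparison of it was called. Irf8 averaged 31.7 ± 1.11 CPM in GS_diff2, against 5.65 ± 0.501 CPM in GS_diff1 (log2 2.48 ± 0.12, adjusted p = 4.41e-17). Socs1, an inhibitor of interferon signalling, averaged 3.15 ± 0.587 CPM in GS_diff2, against 15 ± 0.389 CPM in GS_diff1 (log2 -2.25 ± 0.22, adjusted p = 4.78e-10). Over the list of MHC regulators and interferon gamma signalling genes, 10 of 19 tested were higher and 5 lower in GS_diff2 against GS_diff1, 6 higher and 7 lower in GS_diff2 against GS, 5 higher and 12 lower in GS_diff1 against GS, and 8 higher and 5 lower in GS against RCF. The shares called were 78.9%, 68.4%, 89.5% and 68.4% in the same order, against 63.7%, 67.0%, 64.3% and 71.3% of all genes, so the second was near the background and the fourth below it.

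Most interferon-stimulated genes were higher in GS_diff2 than in GS_diff1. Of 26 tested, 22 were higher and 3 lower in GS_diff2 against GS_diff1 with a median log2 fold change of 1.03, and 1 was higher and 25 lower in GS_diff1 against GS with a median of -0.98. In GS_diff2 against GS, 11 were higher and 9 lower, and in GS against RCF, 5 were higher and 16 lower. The share called was 96.2% in GS_diff2 against GS_diff1, 76.9% in GS_diff2 against GS, 100% in GS_diff1 against GS and 80.8% in GS against RCF, beside 63.7%, 67.0%, 64.3% and 71.3% of all genes, whose medians lay at log2 0.00, 0.00, 0.00 and -0.03. Cxcl10, a chemokine for T cells, averaged 152 ± 4.31 CPM in GS_diff2, 21.1 ± 2.26 CPM in GS_diff1, 51.0 ± 3.04 CPM in GS and 15.8 ± 0.851 CPM in RCF. Rsad2, an antiviral enzyme, averaged 2.70 ± 0.635 CPM in GS_diff2, 0.752 ± 0.56 CPM in GS_diff1, 14 ± 1.51 CPM in GS and 16.9 ± 0.651 CPM in RCF. Ifit2 was among the 3 that were lower in GS_diff2 than in GS_diff1, with 11.4 ± 0.386 CPM in GS_diff2, 32.6 ± 0.25 CPM in GS_diff1, 70.1 ± 2.22 CPM in GS and 97.7 ± 2.22 CPM in RCF.

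Among class I-like genes encoded outside the RT1 complex, 6 of 7 tested were higher and 1 lower in GS_diff2 against GS_diff1, 3 were higher and 3 lower in GS_diff2 against GS, 3 were lower and none higher in GS_diff1 against GS, and 3 were higher and 3 lower in GS against RCF. The shares called were 100%, 85.7%, 42.9% and 85.7%, against 63.7%, 67.0%, 64.3% and 71.3% of all genes, so the share in GS_diff1 against GS was below the background. Mr1, which presents vitamin metabolites, averaged 16.3 ± 0.741 CPM in GS_diff2, against 6.10 ± 0.912 CPM in GS_diff1 (log2 1.41 ± 0.11, adjusted p = 4.86e-12). Fcgrt, the neonatal Fc receptor chain, averaged 51.5 ± 1.03 CPM in GS_diff1, against 128 ± 4.74 CPM in GS (log2 -1.32 ± 0.04, adjusted p = 1.1e-21). Of the class II processing genes, 9 of 10 tested were higher and none lower in GS_diff2 against GS_diff1, 3 were higher and 4 lower in GS_diff2 against GS, 1 was higher and 8 lower in GS_diff1 against GS, and 2 were higher and 7 lower in GS against RCF. The shares called were 90%, 70%, 90% and 90%, against the same shares of all genes, and the 70% in GS_diff2 against GS was near its background of 67.0%. Ctsd, a lysosomal protease, averaged 370 ± 1.43 CPM in GS_diff2, 155 ± 3.08 CPM in GS_diff1, 714 ± 25.8 CPM in GS and 1069 ± 23.6 CPM in RCF.

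Genes outside the RT1 family that lie within its span in Rnor_6.0 were tallied beside it. Of 277 such genes, 104 were tested. They include Tap1, Tap2, Psmb8 and Psmb9, each higher in GS_diff2 than in GS_diff1, so they are no neutral background. The span also holds the 1.18 Mb between RT1-CE10 and the next member. In GS_diff2 against GS_diff1, 38 were higher and 19 lower, which is 54.8% called, against 63.7% of all genes, with a median log2 fold change of 0.18, against a median of 1.27 for the tested RT1 members. In GS against RCF, 37 were higher and 42 lower, which is 76% called, against 71.3% of all genes (35.0% higher and 36.3% lower). The median there was -0.16, against -0.03 over all genes.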

How the data were processed

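The 12 cultures gave total RNA, and libraries were built with NuGEN's Ovation system, per the labels. Read counts per gene were deposited by the authors as whole numbers with no scaling. The aligner named in the submitters' processing notes is Bowtie 0.12.2, and the builds named there are mm8 and Rnor_6.0, with no role for either. Strand use, annotation release, counting program and the treatment of reads with several matches are not given there or in the labels.

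Groups came from the labels. Pairs of libraries within a group differed by 4.44 to 7.57 times the chi-square of sampling noise per degree of freedom in 12 pairs. Counts were scaled with TMM and filtered with filterByExpr, which left 14399 genes. All libraries entered a single quasi-likelihood model of the 4 groups in edgeR 4.0.16 under R 4.3.3 (biological coefficient of variation 9.72%), after a test on simulated data. SE is the absolute log2 fold change over the square root of F. The alternatives were library totals, DESeq2 1.42.0, limma-voom (limma 3.58.1), no low-count filter, a replicate block, only the libraries of both groups, and each library left out. A fold against a group at 0 uses a floor of 3 counts per library. Floors and intervals cover counting error only. Promoters of tested members were compared by global alignment, and short motif letters were searched on both strands.

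The members and gene lists were chosen with earlier results of these data known. All RT1- rows are named, with values in every library for those with a mean of at least 10 CPM in a group. Of the lists, fixed partners and regulators and up to 3 called genes with the largest changes are named. Some genes of the lists are not reported here. Of 136 list entries, 129 matched the table, 2 of them by a RefSeq synonym.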

Additional observations from a re-analysis of the deposited data

How the results depend on the processing

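Of 82 calls among the tested RT1 genes over the 6 comparisons, 66 held under every alternative that was run, 16 were lost under at least 1, and 0 reversed. Of 38 differences not called, 8 passed under at least 1 alternative. The count of class I calls in GS_diff2 against GS_diff1 was 17, with 14 to 17 over the other alternatives and 15 to 17 with 1 library left out. In GS_diff2 against GS it was 11, with 10 to 11 and 8 to 11. In GS_diff1 against GS it was 13, with 11 to 13 and 11 to 13. In GS against RCF it was 12, with 11 to 14 and 10 to 13. In GS_diff2 against RCF it was 14, with 14 to 15 and 13 to 15. In GS_diff1 against RCF it was 15, with 14 to 17 and 14 to 17. Leaving out RCF replicate 3 lost 8 calls and leaving out GS replicate 1 lost 7, the most of any library. The range over the other libraries was 3 to 6.

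The class II count was 0 of 0 tested genes throughout, except without the low-count filter, where it was 1 in GS_diff1 against GS (RT1-DMa, log2 3.70, adjusted p = 0.0149), 1 in GS against RCF (RT1-DMb, log2 -4.77, adjusted p = 0.0371) and 1 in GS_diff1 against RCF (RT1-DMb, adjusted p = 0.0315). These rest on at most 8 counts in a library. With library totals in place of TMM, the median of all genes in GS against RCF stood at -0.126 on the log2 scale, and 10 RT1 genes were lower and 4 higher.

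Same-numbered libraries of different groups were not paired by the labels, and their deviations correlated at -0.045 to 0.0759, with 0 of 18 pairs over 0.1 and 6 of 12 libraries closest to their own number. With the number as a replicate block, 4 calls were lost and 1 was gained, and the counts of class I calls were 16, 10, 12, 11, 14 and 16 in the order of the comparisons given above. Depth limits the class II rows and the class I rows under 1 CPM, where a group mean rests on few counts.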
